A study of Mus musculus with 2 samples.

Results

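Genes of DNA replication in S phase are described here across CD8+ T cells from MC38 tumours of mice with and without natural killer (NK) cells. The 37 genes were chosen by symbol, and all were found among the 32285 genes of the deposited matrices. They encode the replicative helicase Mcm2 to Mcm7 and the factors that load and start it (Cdc6, Cdt1, Mcm10, Cdc45, Gins1, Gins2). Grouped with these factors is Dtl, which directs the destruction of Cdt1. They also encode primase, polymerases and single-strand binding proteins (Prim1, Pola1, Pola2, Pold1, Pole, Rpa1, Rpa2), and the sliding clamp with its loader and the enzymes that join lagging-strand fragments (Pcna, Rfc1 to Rfc5, Fen1, Lig1). The remaining genes serve nucleotide supply (Rrm1, Rrm2, Tyms), upkeep of chromatin and DNA methylation (Hells, Uhrf1, Cdca7), and cyclin E and histone messenger processing (Ccne1, Ccne2, Slbp). They were read in cells with at least 500 detected genes, a mitochondrial share of UMIs (unique molecular identifiers, 1 per captured transcript) under 10%, and at least 1 UMI each of Cd3d, Cd3e or Cd3g and of Cd8a or Cd8b1.

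A cell licenses its origins of replication in G1, when Cdc6 and Cdt1 load the Mcm helicase onto DNA. At the start of S phase, Cdc45 and the GINS complex turn the helicase on, polymerases copy the strands with Pcna as their clamp, and histone genes are transcribed at the same time to pack the new DNA. Many of these genes are targets of E2F factors, which cyclin E kinase activity sets free from the retinoblastoma protein. Activated CD8 T cells divide fast, whereas Tcf7, which encodes the factor TCF1, marks naive and stem-like CD8 T cells in tumours, and Pdcd1 and Havcr2, which encode the inhibitory receptors PD-1 and TIM-3, are carried by activated and exhausted ones.

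The study set tumour CD8 T cells with NK cells present beside those without. MC38 is a mouse colon carcinoma line. Both groups were wild-type mice (genotype WT) whose tumours were taken 9 days after implantation, and live CD8+ T cells were sorted from them and sequenced with 10x Genomics 5′ chemistry. PBS is the treatment given for the control group, although its library is named CD8Iso, and the NK-depleted group received an antibody against NK1.1 (a-NK1.1 antibody). There was 1 library per group, and the number, age and sex of the mice behind each are not given in the sources used here. No test was therefore run, no p-value is given, and every interval covers counting error only. A difference between the libraries cannot be told apart from a difference between tumours, mice or library preparations.

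The control library held 7866 barcodes, of which 6901 were CD8 T cells by the rule above (median 11444 UMIs, 106462391 UMIs in all). The NK-depleted library held 10111 barcodes, of which 8164 were CD8 T cells (median 12289.5 UMIs, 125332343 UMIs in all). The rule kept 96.3% and 97.7% of the cells that passed the gene and mitochondrial filters. Of T cell genes that the rule did not use, at least 1 UMI of Trac, Trbc1 or Trbc2 was present in 99.6% and 99.8% of these CD8 T cells after thinning to 5500 UMIs. The libraries shared 391 barcodes. In the control CD8 T cells, 151 had a barcode also present in the NK-depleted library, with a median of 27203 UMIs, while 61 NK-depleted cells had a barcode of the control library, with a median of 1334 UMIs. Results without these cells are given for the summed levels and for the replicating share of each library. They were not run by status or by cell class. The median mitochondrial share was 2.27% in control and 2.80% in NK-depleted cells.

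The promoters of these genes were read for the E2F site before the transcript levels, since E2F factors are the best-known regulators of the set. RefSeq promoter windows (GRCm38.p6, from 250 bases before to 50 bases after each transcription start) were matched by symbol for 31 of the 37 genes, and Ccne2, Gins1, Gins2, Mcm4, Pole and Rfc2 had none. The words TTTCCCGC, TTTCGCGC, TTTGCCGC and TTTGGCGC, which spell the E2F site, were searched on both strands, and overlapping words were counted separately. At least 1 word was present for 14 of 31 genes (45.2%): Cdc6, Cdca7, Cdt1, Dtl, Hells, Lig1, Mcm3, Mcm5, Mcm6, Mcm7, Pola1, Pold1, Rfc3 and Uhrf1. The same words were in 29.5% of windows of 78 other replication genes, in 5.54% of windows of the 6098 genes with at least 10 CPM (counts per 1000000 counts of a library) and in 2.61% of all 27025 genes with a window. None of 27 genes of G2 and M phase held a word. The order differed for the letters TTTGAA, known as the CHR element of genes of late cell cycle phases, which were in 9.68% of the 31 genes' windows, 70.4% of the G2 and M phase windows and 14.7% of windows of genes with at least 10 CPM. The letters CCAAT were in 61.3%, 85.2% and 42.8% of these windows. A match is a stretch of letters and not a measured binding site. Of the 14 genes, 10 held a word before the RefSeq start. The following 4 stretches are printed 5′ to 3′ on the gene's strand with the E2F words in capitals. Among those 10 genes, only these 4 had a stretch that lay wholly outside the annotated gene, so they are not typical of the set. They come from chr1:191575545-191575567 (Dtl, minus strand), chr8:75109341-75109382 (Mcm5, plus strand), chr1:128359730-128359830 (Mcm6, minus strand) and chrX:93632271-93632308 (Pola1, minus strand).
Dtl: aaagcgtgacgtcagTTTGGCGC
Mcm5: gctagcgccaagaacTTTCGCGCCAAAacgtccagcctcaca
Mcm6: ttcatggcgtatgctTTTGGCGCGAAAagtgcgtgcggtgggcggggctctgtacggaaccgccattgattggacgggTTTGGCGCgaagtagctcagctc
Pola1: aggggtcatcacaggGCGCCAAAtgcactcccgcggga
The word of Dtl begins 8 bases before the RefSeq start and that of Pola1, on the other strand, 138 bases before it. Mcm5 has a pair of words on opposite strands that overlap in the 12 capitals, beginning 153 bases before the start. Mcm6 has such an overlapping pair as well, 110 bases before the start, and another word 47 bases before it.

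Between the libraries, 21 of the 37 replication genes stood higher after NK depletion by the limit used here. For each library the counts of all CD8 T cells were added up and expressed as CPM. A gene was counted where it reached 10 CPM in 1 library and was at least 25% higher or at least 20% lower (the same ratio turned over), limits that hold for every count of higher and lower genes given here. Of 36 genes that reached 10 CPM, 21 were higher with NK depletion and 0 were lower. Across all 7624 genes of that level, 6.27% were higher and 11.9% were lower. The median log2 ratio was 0.37 over the 36 genes and −0.06 over all 7624. Together the 37 genes summed to 1889 CPM in control and 2355 CPM in NK-depleted cells (ratio 1.247, 1.239 to 1.254). Gins1 was under the minimum, at 5.64 and 7.52 CPM, and Ccne2 passed it only through the NK-depleted library. With scaling by TMM and median-of-ratios factors the all-gene split changed to 10.7% and 11.5% higher and to 7.01% and 6.63% lower. The median-of-ratios factors moved the all-gene median by 0.10, and the replication genes' median lay 0.43 above it, a distance that scaling leaves nearly fixed because it shifts every gene alike. Without cells whose barcode is in both libraries, 24 genes were higher and the median was 0.42.

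**Figure D1:**
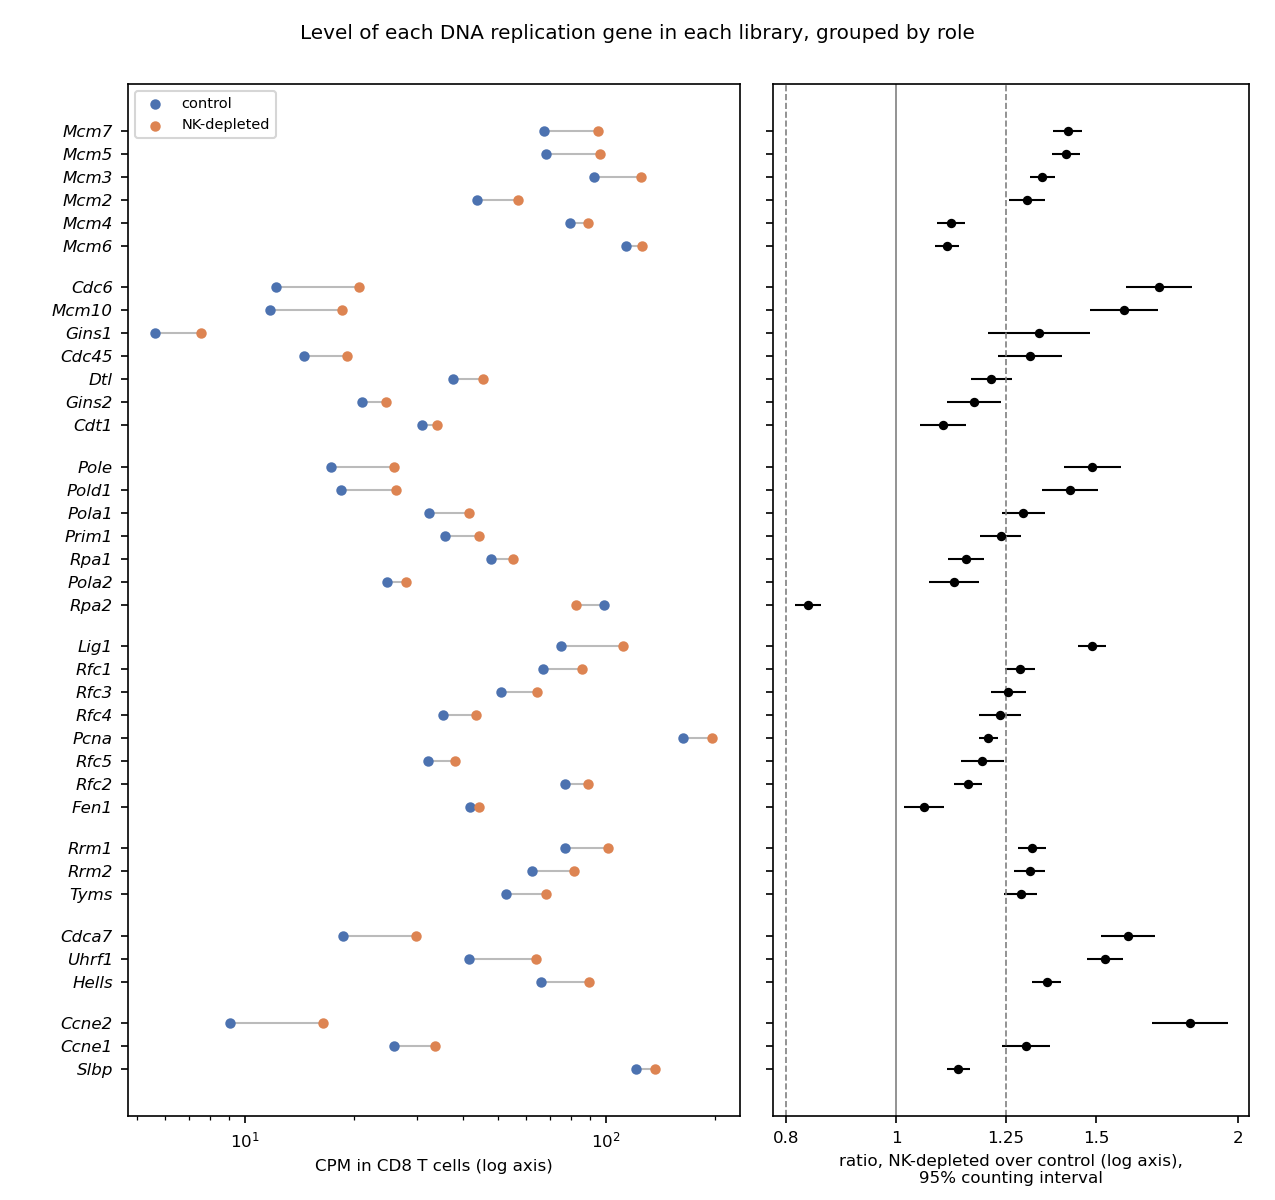
Left, the level of each of the 37 replication genes in CPM (log axis) in the control and NK-depleted library, grouped by role; right, the ratio of NK-depleted over control (log axis) with its 95% counting interval and dashed lines at the limits for counting (25% higher, 20% lower). All points but that of Rpa2 (0.837) lie above 1. Ccne2 (1.81), past 10 CPM only in the NK-depleted library, lies farthest to the right.

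The 6 subunits of the helicase fell into a higher and a lower group. Mcm7 stood at 67.1 CPM in control and 95.03 CPM in NK-depleted cells (ratio 1.42, 1.38 to 1.46), and Mcm5 at 68.2 and 96.2 CPM (1.41). Mcm3 was at 92.6 and 124.6 CPM (1.35, 1.31 to 1.38) and Mcm2 at 43.8 and 57.0 CPM (1.304). These 4 passed the limit for counting. Mcm4 was at 79.4 and 88.8 CPM (1.12, 1.09 to 1.15) and Mcm6 at 113 and 126 CPM (1.11, 1.08 to 1.14), and their intervals did not reach those of the other 4. The helicase is built from 1 copy of each subunit, so the unequal ratios are of transcripts and not of complexes. Mcm7 lies on chromosome 5 (138164583 to 138172422, minus strand, GRCm38) and Mcm6 on chromosome 1 (128331590 to 128359664, minus strand).

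Among the licensing and firing factors, Cdc6 differed most. This ATPase, which brings the helicase to origins (chromosome 11, 98907801 to 98923940, plus strand), had 12.2 CPM in control and 20.7 CPM in NK-depleted cells (ratio 1.70, 1.59 to 1.82). Mcm10, which helps start the helicase, was at 11.7 and 18.6 CPM (1.59, 1.48 to 1.70), and Cdc45, a subunit of the active helicase, at 14.6 and 19.1 CPM (1.31). Dtl, which directs the destruction of Cdt1 in S phase, was at 37.5 and 45.5 CPM (1.21), and Gins2 at 21.03 and 24.6 CPM (1.17). Cdt1, the partner of Cdc6 in licensing, had the smallest ratio of this role, 1.0999 (1.05 to 1.15), with 30.8 and 33.9 CPM. The partners in licensing thus stood at opposite ends of their role.

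Primase and the polymerases varied as much, and this role held the 1 gene of the 37 with a ratio under 1, which did not pass the limit. Pole, the catalytic subunit of the leading-strand polymerase (chromosome 5, 110286306 to 110337474, plus strand), was at 17.3 and 25.8 CPM, a ratio of 1.49 (1.41 to 1.58), and Pold1, its lagging-strand counterpart, at 18.4 and 26.1 CPM (1.42). Pola1, the catalytic subunit of polymerase alpha, was at 32.3 and 41.7 CPM (1.29). Prim1, which makes the RNA primers, was at 35.9 and 44.3 CPM, just under the limit for counting. Pola2 was at 24.7 and 27.8 CPM and Rpa1, the large subunit of the single-strand binding protein, at 47.9 and 55.2 CPM. Rpa2, the middle subunit of that protein (chromosome 4, 132768332 to 132778752, plus strand), went the other way, with 98.5 CPM in control and 82.4 CPM in NK-depleted cells (ratio 0.837, 0.814 to 0.860). It had at least 1 UMI in 36.95% (35.8 to 38.2) of the control library's cells and 30.7% (29.7 to 31.8) of the other library's once each cell was thinned to 5500 UMIs.

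Of the 8 genes of the clamp, its loader and the fragment-joining enzymes, 3 passed the limit, and Lig1 had the largest ratio. Lig1, the ligase that seals lagging-strand fragments (chromosome 7, 13277283 to 13311433, plus strand), stood at 74.8 and 111 CPM, a ratio of 1.49 (1.45 to 1.53). Pcna, the clamp itself, was at 163 and 197 CPM (1.21, 1.18 to 1.23). The loader subunits lay close together, with Rfc1 at 66.7 and 85.7 CPM (1.28) and Rfc3 at 51.2 and 64.3 CPM (1.26) past the limit, and Rfc4 (35.3 and 43.5 CPM), Rfc5 (32.1 and 38.2 CPM) and Rfc2 (77.1 and 89.1 CPM) short of it. Fen1, the flap endonuclease that trims the fragments before Lig1 joins them, had the smallest ratio of the role, 1.06 (1.02 to 1.101), at 42.0 and 44.4 CPM.

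All 3 genes of nucleotide supply passed the limit by similar amounts. Rrm1 and Rrm2, the subunits of ribonucleotide reductase, stood at 77.0 and 101 CPM (1.32, 1.28 to 1.35) and at 62.1 and 81.4 CPM (1.31, 1.27 to 1.35). Tyms, the thymidylate synthase, was at 52.8 and 67.9 CPM (1.29, 1.24 to 1.33). Their intervals overlapped one another.

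The 3 genes of chromatin and DNA methylation upkeep had the largest ratio of any role in summed CPM, 1.45 (1.42 to 1.48). Cdca7, which works with Hells in nucleosome remodelling (chromosome 2, 72476159 to 72486893, plus strand), was at 18.6 and 29.8 CPM, a ratio of 1.599 (1.51 to 1.69). Uhrf1, which brings the maintenance methyltransferase to new DNA, was at 41.7 and 63.7 CPM (1.53, 1.47 to 1.59). Hells was at 65.9 and 89.4 CPM (1.36, 1.32 to 1.40).

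Cyclin E and histone messenger binding held the gene with the largest ratio. Ccne2, 1 of the 2 E cyclins that drive entry into S phase (chromosome 4, 11191351 to 11204779, plus strand), was at 9.05 CPM in control and 16.4 CPM in NK-depleted cells (ratio 1.81, 1.68 to 1.96). It reached 10 CPM only in the NK-depleted library, so it could only be counted as higher. Ccne1, the other, was at 25.8 and 33.5 CPM (1.3005, 1.24 to 1.37). Slbp, which binds the stem-loop of histone messengers, was at 121 and 137 CPM (1.13, 1.11 to 1.16).

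A smaller share of the rest of the replication machinery passed the limit. Of 101 other replication genes in 6 lists, 90 reached 10 CPM, and 35 of these were higher and 1 was lower, against the 6.27% and 11.9% of all genes given above. Of the 35, 8 reached 10 CPM only in the NK-depleted library (Chek1, Dscc1, E2f7, Mybl2, Rad54l, Shmt1, Skp2 and Ticrr), so they could only be counted as higher. With TMM and with median-of-ratios factors, 52 of 91 genes were higher and 0 lower. Under the same factors, 26 and 27 of the 36 measured genes of the set itself were higher and 0 lower. The median log2 ratio over the 90 was 0.25, and that of the licensing and firing genes 0.07. By list, 10 of 19 genes of E2F and cyclin control were higher, 7 of 13 of nucleotide supply, 7 of 17 polymerase and fork subunits, 6 of 16 of repair and checkpoint, 3 of 9 of chromatin assembly and 2 of 16 of licensing and firing. The largest ratios were those of Shmt1, a folate enzyme that feeds Tyms (7.91 and 13.05 CPM, 1.65), of the transcription factor Mybl2 (8.86 and 13.3 CPM, 1.503) and of E2f1 (14.1 and 20.9 CPM, 1.48). The 1 gene lower by CPM, a call that both scalings ended, was Rpa3, the small subunit of the single-strand binding protein, at 43.4 and 33.2 CPM (0.765, 0.733 to 0.798), so that 2 of the 3 subunits of that protein were below 1. Next lowest of the 90 were Mcm9, a helicase of repair (21.03 and 17.1 CPM, 0.813), and Rrm2b, the reductase subunit of cells outside S phase (23.1 and 19.6 CPM, 0.846). Ccnd1 was under the minimum in both libraries and had a lower ratio than any of these (9.27 and 4.60 CPM, 0.496, 0.447 to 0.550). Without a minimum, 43 of the 101 genes were higher and 2 lower, against 14.6% and 25.6% of all genes.

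The summed levels do not say how many cells held these transcripts, so cells were counted. Each cell was thinned to 5500 UMIs at random, and a cell in which at least 10 of the 37 genes were then detected is called replicating here, a threshold and not a cell type. The control library had 1141 replicating cells of 6246 (18.3%, 17.3 to 19.2) and the NK-depleted library 2207 of 7384 (29.9%, 28.8 to 30.9), a difference of 11.6 percentage points. The median cell had 4 of the 37 genes detected in the control and 5 in the NK-depleted library, and the most in any cell was 28 in both. Just outside and just inside the threshold stood 165 control cells with 9 genes and 116 with 10, and 242 and 235 NK-depleted cells. Replicating cells carried 52.9% of all replication-gene UMIs in the control and 68.4% in the NK-depleted library. Thinning left out 655 control and 780 NK-depleted cells with fewer than 5500 UMIs, and without thinning the shares were 36.8% and 45.9%. The NK-depleted share was the higher one in each of the 11 alternatives run, and the difference was smallest in 3 of them, at 6.69 points with 15 genes as the threshold, 6.02 with thinning to 3000 UMIs and 4.82 when cells with markers of other lineages were left out. This last filter removed 4524 control and 5699 NK-depleted cells, since T cells carry some of the markers. With 12 markers that T cells lack, chosen after seeing the data, 557 and 553 cells were left out and the difference was 11.9 points.

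**Figure D2:**
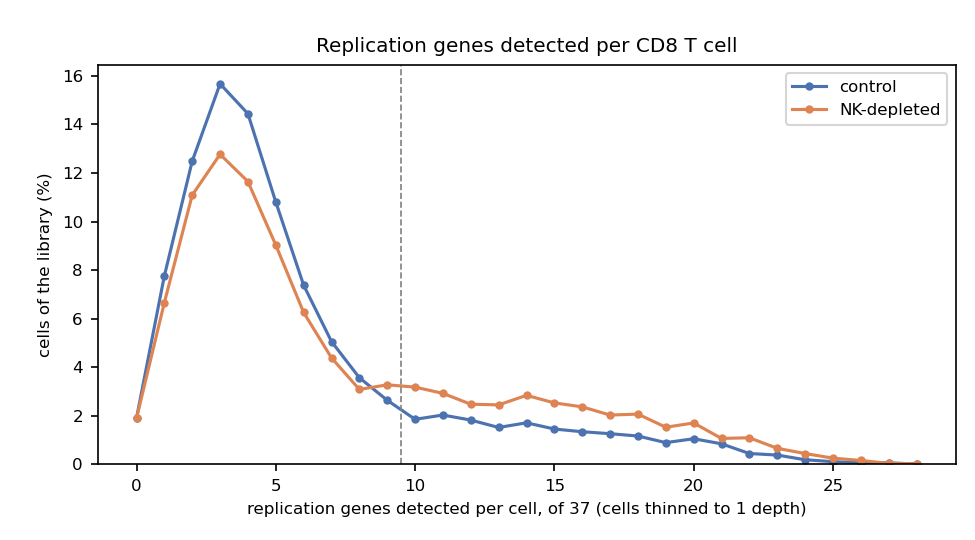
Share of CD8 T cells (%) by the number of the 37 replication genes detected per cell after thinning to 5500 UMIs, for the control and the NK-depleted library; the dashed line is the threshold between 9 and 10 genes. Both curves peak at 3 genes, and from 9 genes up to 26 the NK-depleted curve lies above the control curve.

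Cells that should seldom divide gave the background of this count. Among CD8 T cells with at least 3 of 6 naive or resting T cell markers, 16 of 568 control cells (2.82%, 1.62 to 4.53; median 11122 UMIs before thinning) and 61 of 830 NK-depleted cells (7.35%, 5.67 to 9.34; median 10030.5 UMIs) were replicating, so these cells too had the higher share under NK depletion. Barcodes with no Cd3 UMI and at least 3 macrophage or dendritic cell markers were read as well. Replicating were 0 of 31 in the control (0 to 11.2%) and 0 of 18 in the NK-depleted library (0 to 18.5%). T cells carry some of these markers, so such barcodes need not be myeloid cells, and what they hold was not tested. Replicating cells held more RNA before thinning, with medians of 22198 and 20437 UMIs against 11245 and 11261 in the other cells. Doublets were not removed. Without the 8% of cells with the most UMIs in each library the shares were 14.8% and 26.3%, a difference of 11.5 points. The summed markers of macrophages or monocytes, B cells, NK cells, gamma delta T cells, naive or resting T cells and tumour or epithelial cells were lower in replicating than in other cells of both libraries. So were those of CD8 T cells themselves, at 8312 against 9240 CPM in the control and 6752 against 7829 CPM with NK depletion. Summed CD4 T cell markers went both ways, at 21.83 against 21.97 CPM and 26.36 against 25.64 CPM. The summed markers of dendritic cells were higher. Those of fibroblasts and erythroid cells were higher as well, but at sums far under 10 CPM that rest on few UMIs, so their direction is not read. The 8 macrophage or monocyte markers summed to 22.6 CPM in replicating and 35.7 CPM in other control cells, and to 17.1 and 28.4 CPM in NK-depleted cells. The 8 NK cell markers summed to 3471 against 3521 CPM in the control and to 3007 against 3299 CPM with NK depletion, led by Nkg7. Only 1 of these 8, the receptor gene Ncr1, was at 0 in replicating cells of both libraries. The 10 dendritic cell markers stood at 551 against 455 CPM and at 497 against 446 CPM, led by Irf8, which activated T cells also carry. The 5 fibroblast markers stood at 0.797 against 0.356 CPM and at 2.72 against 1.37 CPM, and the 3 erythroid markers at 0.159 against 0.0712 CPM and at 0.165 against 0.0702 CPM. The part of doublets and of these lists in the result was not tested beyond these values.

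The replicating share was then read by the status of 5 genes, a cell being positive with at least 1 UMI after thinning. Such a call misses cells whose transcripts were not captured, and free RNA can add calls. In the barcodes with myeloid markers, the positive share was 38.7% (12 of 31) in the control and 11.1% (2 of 18) in the NK-depleted library for Tcf7, against 21.1% and 21.3% of CD8 T cells, so the Tcf7-positive share is not read as a share of cells that express Tcf7. For Pdcd1 it was 32.3% and 16.7% in those barcodes against 53.8% and 45.6% of CD8 T cells, and for Havcr2 6.45% and 16.7% against 28.6% and 34.9%. For Gzmc it was 3.23% (1 of 31) and 0 of 18 against 8.998% and 32.3%, and for Ifit3 16.1% and 5.56% against 67.4% and 50.3%. The median depth before thinning was 11322 and 9532.5 UMIs in those barcodes and 12406.5 and 13233.5 in CD8 T cells.

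Tcf7-positive cells were the least often replicating of the 5 positive groups. In the control, 7.43% (6.07 to 8.98) of 1319 Tcf7-positive cells were replicating against 21.2% (20.04 to 22.3) of 4927 negative cells. In the NK-depleted library the shares were 14.1% (12.4 to 15.9) of 1576 and 34.2% (33.0 to 35.4) of 5808. The levels, as CPM of the thinned cells, went the same way. Of the replication genes with at least 10 CPM in 1 of the compared groups, 29 of 32 were lower in Tcf7-positive control cells, against 21.7% of all genes, and 35 of 36 in NK-depleted cells, against 23.4%. In each library 4 of these genes reached 10 CPM only in the negative cells. Rrm2 stood at 14.9 CPM in Tcf7-positive and 43.7 CPM in negative control cells (0.341), and at 23.4 and 68.9 CPM in the NK-depleted library (0.340). Cdc6 was at 6.23 and 19.1 CPM in the NK-depleted library (0.327). Rfc1, whose product opens the clamp, differed least in the NK-depleted library (68.1 and 77.1 CPM, 0.882), and Rpa1 in the control (44.9 and 47.5 CPM, 0.947). Naive cells carry Tcf7, and the naive or resting markers above were in cells of this group, so Tcf7-positive cells are not only stem-like ones. Over the 10 alternatives, the difference in replicating share ran from −18.5 (thinned to 8000 UMIs) to −2.37 points (not thinned) in the control and from −26.0 (status from 2 UMIs) to −10.5 points (not thinned) with NK depletion.

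Pdcd1-positive cells were more often replicating than negative ones in both libraries, by 4.77 points in the control (20.5%, 19.1 to 21.9, against 15.7%, 14.4 to 17.1) and by 10.5 points in the NK-depleted library (35.6%, 34.0 to 37.2, against 25.1%, 23.8 to 26.5). In the control only 3 of 32 replication genes were higher in the positive cells (7.37% of all genes), and in the NK-depleted library 21 of 36 (13.4% of all genes). Rpa2 was the gene with the largest ratio in the NK-depleted library, at 93.6 CPM in positive and 58.6 CPM in negative cells (1.599). The difference between the libraries in these counts was not tested. The size of the difference in share depended on depth, with 1.14 points in the control thinned to 3000 UMIs, 10.3 thinned to 8000 and 29.8 not thinned, and 3.69 points to 31.7 over the alternatives with NK depletion.

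Havcr2-positive cells held 26.0% (24.0 to 28.1) replicating cells in the control against 15.2% (14.1 to 16.3) of negative cells, and 37.6% (35.7 to 39.5) against 25.8% (24.6 to 27.05) in the NK-depleted library. Higher in positive cells were 22 of 35 replication genes in the control (13.8% of all genes) and 25 of 36 in the NK-depleted library (15.9%). In the control 4 of the 22 reached 10 CPM only in positive cells. Rrm2 was at 57.1 CPM in positive and 29.8 CPM in negative control cells (1.92). Mcm10 was at 18.6 and 10.8 CPM in the NK-depleted library (1.72), the largest ratio there. Cdt1 stood near 1 in both libraries (28.8 and 31.1 CPM in positive and negative control cells, 30.5 and 30.2 CPM with NK depletion). Over the alternatives the difference in share ran from 4.19 points (thinned to 3000 UMIs) to 34.4 (not thinned) in the control and from 6.32 to 32.7 under the same settings with NK depletion.

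Cells positive for Gzmc, a granzyme of strongly stimulated killer cells, were the most often replicating of the 5 positive groups. Their lead depended on which cells were kept. Without cells with markers of other lineages the difference between Gzmc-positive and negative cells was 3.53 points in the control, under the 7.34 of Havcr2, and 9.40 points with NK depletion. That filter left out 4524 control and 5699 NK-depleted cells, since T cells carry some of its markers, so it is not a measure of other lineages alone. Not thinned, the difference was 34.5 and 33.1 points. Of 562 Gzmc-positive control cells, 35.9% (32.0 to 40.1) were replicating against 16.5% (15.6 to 17.5) of negative cells. Of 2382 positive NK-depleted cells, 41.9% (39.9 to 43.9) were replicating against 24.2% (23.01 to 25.4). Higher in positive cells were 31 of 36 replication genes in the control (14.9% of all genes) and 30 of 36 in the NK-depleted library (12.5%). In the control 4 of the 31 reached 10 CPM only in positive cells. Rrm2 was at 91.9 and 32.2 CPM in positive and negative control cells (2.85) and at 84.7 and 47.1 CPM in NK-depleted cells (1.80). Cdc6 was at 15.9 and 6.91 CPM (2.29) and at 24.9 and 12.2 CPM (2.03). Gzmc UMIs were also in 1.41% of the naive-marker cells of the control and 16.7% of those of the NK-depleted library, and whether these came from free RNA was not tested. The positive cells were also deeper before thinning (20756 and 16713 UMIs against 11948 and 12106.5).

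Ifit3, an interferon-induced gene, marked cells that were less often replicating. In the control, 15.2% (14.2 to 16.4) of Ifit3-positive cells were replicating against 24.5% (22.7 to 26.5) of negative cells, and in the NK-depleted library 21.4% (20.1 to 22.8) against 38.5% (36.9 to 40.1). Lower in positive cells were 19 of 34 replication genes in the control (13.3% of all genes) and 34 of 36 in the NK-depleted library (11.4%). Of these, 3 and 2 genes reached 10 CPM only in negative cells. Cdc6 was at 5.70 CPM in positive and 11.9 CPM in negative control cells (0.480) and at 10.6 and 22.1 CPM in NK-depleted cells (0.481). Rpa2 was at 96.2 and 95.2 CPM among control cells and at 69.7 and 79.5 CPM among NK-depleted ones. This order depended on thinning: without it, Ifit3-positive cells were 1.31 points more often replicating in the control and 0.0328 points in the NK-depleted library.

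**Figure D3:**
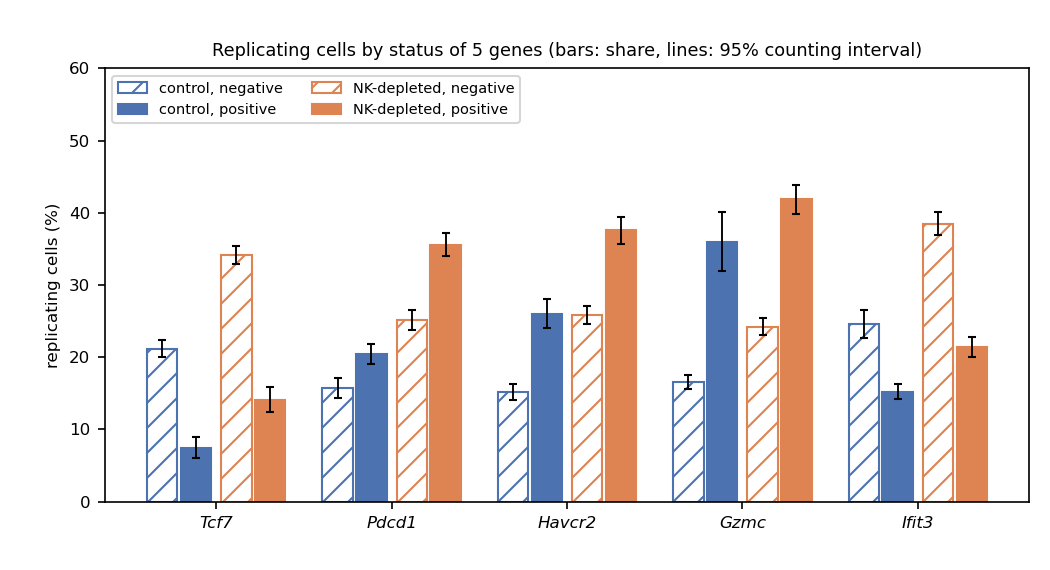
Replicating cells (%) among cells negative (hatched) and positive (filled) for each of 5 genes in the control and the NK-depleted library; lines are 95% Clopper-Pearson intervals over cells, which cover counting error only. Tcf7-positive control cells are lowest (7.43%) and Gzmc-positive NK-depleted cells highest (41.9%), and for each gene and status the NK-depleted bar is above the control bar.

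Pairs of status genes widened the range. Tcf7-positive cells without Pdcd1 were replicating in 5.46% (4.07 to 7.16) of 897 cells in the control library and in 11.9% (10.1 to 13.8) of 1240 with NK depletion, and with Pdcd1 in 11.6% (8.71 to 15.1) of 422 and 22.3% (17.98 to 27.2) of 336. Tcf7-negative Havcr2-positive cells reached 26.8% (24.7 to 29.03) and 38.7% (36.7 to 40.6). Gzmc and Ifit3 each counted within the other: Gzmc-positive Ifit3-negative cells were replicating in 40.8% (35.1 to 46.7) of 294 cells in the control library and in 50.4% (47.7 to 53.0) of 1399 with NK depletion, and Gzmc-negative Ifit3-positive cells in 14.2% (13.1 to 15.3) of 3941 and 18.4% (16.98 to 19.9) of 2731. In Gzmc-positive Ifit3-positive cells the shares of the libraries overlapped, at 30.6% (25.1 to 36.5) and 29.7% (26.9 to 32.7), whereas in Gzmc-negative Ifit3-negative cells they were 21.8% (19.9 to 23.8) and 31.1% (29.2 to 33.1).

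The libraries also differed in how many cells had each status. Had the control shares within Gzmc-positive and Gzmc-negative cells been weighted by the NK-depleted library's mix of the 2, the control share would have been 22.8% in place of 18.3%, and with its mix of Ifit3 status 19.9%. With its mix of Tcf7 status it would have been 18.2%, of Pdcd1 status 17.9% and of Havcr2 status 19.0%. These are arithmetic on the shares above and none reached the 29.9% of the NK-depleted library.

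Cells were next placed in the cycle by genes outside the set, namely 49 replication-dependent histone genes and 30 genes of G2 and M phase, with at least 5 of a list detected for a positive call. In the control, 82.8% (81.9 to 83.8) of cells were positive for neither list, and with NK depletion 70.2% (69.1 to 71.2). Cells positive for histones alone were 2.53% and 6.31%, for both lists 11.8% and 18.8%, and for G2 and M phase alone 2.79% and 4.74%. Replicating cells were 57.0% (48.9 to 64.8) and 57.1% (52.4 to 61.6) of the histone-only class in the control and NK-depleted library, and 70.4% (67.0 to 73.7) and 76.0% (73.7 to 78.2) of the class positive for both. They were 14.4% (9.52 to 20.5) and 26.3% (21.7 to 31.2) of the class positive for G2 and M phase alone, and 9.76% (8.96 to 10.6) and 15.3% (14.4 to 16.3) of cells positive for neither. Because the last class was so large, it still held 44.3% of replicating control cells and 36.0% of replicating NK-depleted cells.

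All 37 replication genes were higher in histone-positive cells than in cells positive for neither list, in both libraries, against 23.6% of all genes in the control and 24.1% in the NK-depleted library. The median log2 ratio was 1.83 in the control and 1.71 in the NK-depleted library. Of the 37, 7 in the control and 5 in the NK-depleted library reached 10 CPM only in histone-positive cells, so they could only be counted as higher. These were Ccne2, Cdc45, Cdc6, Gins1 and Mcm10 in both libraries, and Pole and Rrm2 in the control. Rrm2 was the steepest, at 220 CPM in histone-positive and 5.87 CPM in negative control cells (37.5-fold) and at 199 and 10.5 CPM in NK-depleted cells (18.9-fold). Mcm10 came next at 34.2 and 2.46 CPM (13.9-fold) and 38.8 and 4.49 CPM (8.64-fold), and Cdc6 was at 35.8 and 2.85 CPM (12.6-fold) and 43.6 and 6.53 CPM (6.68-fold). Among the flattest were Rpa2 (137 and 89.4 CPM, 1.54-fold, in the control; 107 and 63.1 CPM, 1.69-fold, in the NK-depleted library), Mcm6 (1.73-fold and 1.67-fold) and Cdt1 (1.63-fold and 1.91-fold). Rpa2 and Mcm6 thus kept most of their level outside histone-positive cells, while Rrm2 was read there at low levels.

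Cells positive for G2 and M phase alone were compared with cells positive for neither list. In the control, 15 of 31 measured replication genes were higher (24.5% of all genes), and in the NK-depleted library 26 of 36 (25% of all genes). The control count includes 1 gene, Rrm2, that reached 10 CPM only in the former cells. The NK-depleted count includes 4 such genes (Ccne2, Cdc45, Cdc6 and Mcm10), and such genes could only be counted as higher. Rrm2 again led in both, at 38.7 against 5.87 CPM (6.59-fold) and 39.0 against 10.5 CPM (3.70-fold), and Tyms stood at 49.1 against 16.3 CPM and 43.6 against 19.5 CPM. Cdt1, whose product is destroyed once S phase begins, was at 18.8 against 28.2 CPM in the control (0.667, 0.394 to 1.06) and 22.9 against 24.7 CPM in the NK-depleted library (0.924, 0.665 to 1.253). This class was small, with 174 control and 350 NK-depleted cells.

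**Figure D4:**
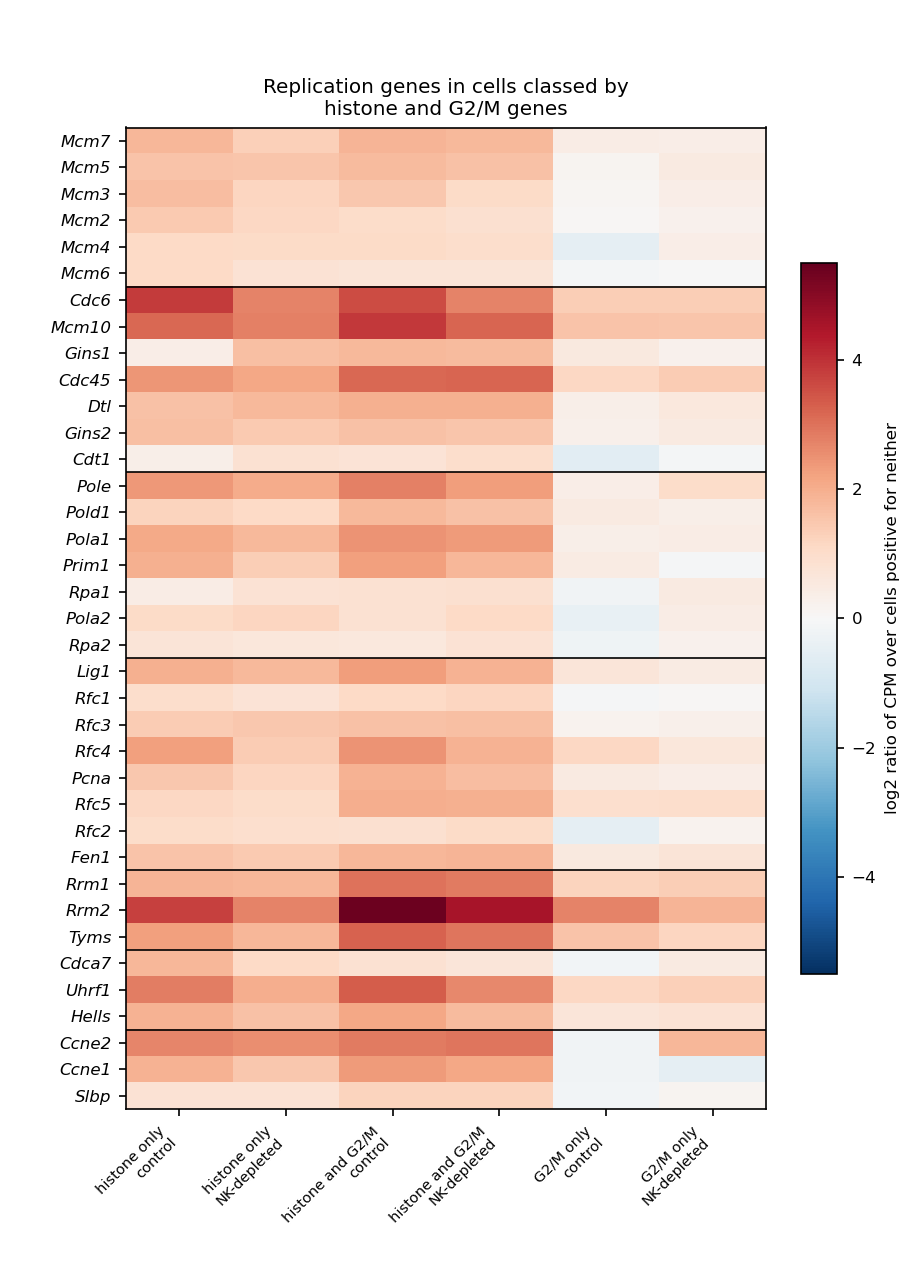
log2 ratio of CPM of each of the 37 replication genes in 3 classes of cells over cells positive for neither histone nor G2 and M phase genes, for each library (red higher, blue lower; rows ordered by role). The histone-positive columns are red throughout, and those positive for both lists are darkest for Rrm2. In the histone-only columns Cdc6 (control) and Mcm10 (NK-depleted) are slightly darker than Rrm2. The columns for G2 and M phase alone are pale for most genes.

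The difference between the libraries in summed levels was small within histone-positive cells and larger within the other classes. In histone-positive cells, 4 of 37 genes were higher with NK depletion (6.91% of all genes). The median log2 ratio in them was 0.04, against −0.06 over all genes. The 4 were Cdca7 (26.9 and 36.3 CPM, 1.35), Ccne2 (25.3 and 32.9 CPM, 1.298), Pold1 (33.8 and 43.1 CPM, 1.28) and Mcm5 (125 and 157 CPM, 1.26). Rpa2 was lower here too, at 137 and 107 CPM (0.777). Within cells positive for neither list, 12 of 32 genes were higher (4.95% of all genes), with a median of 0.25 against −0.10 over all genes. Of these 12, Rrm2 (5.87 and 10.5 CPM, 1.79) and Pole (6.57 and 10.1 CPM) reached 10 CPM only in the NK-depleted library. The largest ratios of the others were Uhrf1 (12.5 and 21.7 CPM, 1.74) and Cdca7 (12.8 and 20.8 CPM, 1.62), and Rpa2 was at 89.4 and 63.1 CPM (0.706). Within cells positive for G2 and M phase alone, 20 of 36 genes were higher (17.4% of all genes), 5 of them past 10 CPM only in the NK-depleted library. The median in this class was 0.35, against −0.05 over all genes. With the control shares weighted by the NK-depleted library's mix of the 4 classes, the control would have had 24.4% replicating cells in place of 18.3%. The NK-depleted library had 29.9%.

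Replicating cells with and without histone genes differed in the make-up of their replication transcripts. The 505 control and 794 NK-depleted replicating cells positive for neither list had a mean of 20.6 and 20.3 replication-gene UMIs per thinned cell, against 26.6 in histone-positive replicating cells of both libraries (611 and 1321 cells). In the cells positive for neither list, Cdca7 made up 1.87% of these UMIs in the control against 0.769% in histone-positive cells, a ratio of 2.43 (1.93 to 3.06), and 2.07% against 0.996% in the NK-depleted library. The helicase genes took larger shares as well, with Mcm2 at 3.64% against 1.85% (1.96, 1.68 to 2.29) in the control and 3.64% against 2.01% in the NK-depleted library, and Mcm6 at 7.01% against 4.09% and 6.79% against 4.02%. The genes of nucleotide supply took smaller ones. Rrm2 made up 0.635% against 6.11% in the control (0.104, 0.0797 to 0.133) and 0.762% against 5.30% in the NK-depleted library, and Tyms 1.74% against 3.91% and 1.61% against 3.48%. Ccne1 was at 0.750% against 1.58% in the control and 0.917% against 1.56% in the NK-depleted library. In both libraries Cdca7 and Mcm2 stood at 1 end of the 37 genes and Rrm2 and Tyms at the other. Shares sum to the whole, so a small share of Rrm2 makes room for the other genes.

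**Figure D5:**
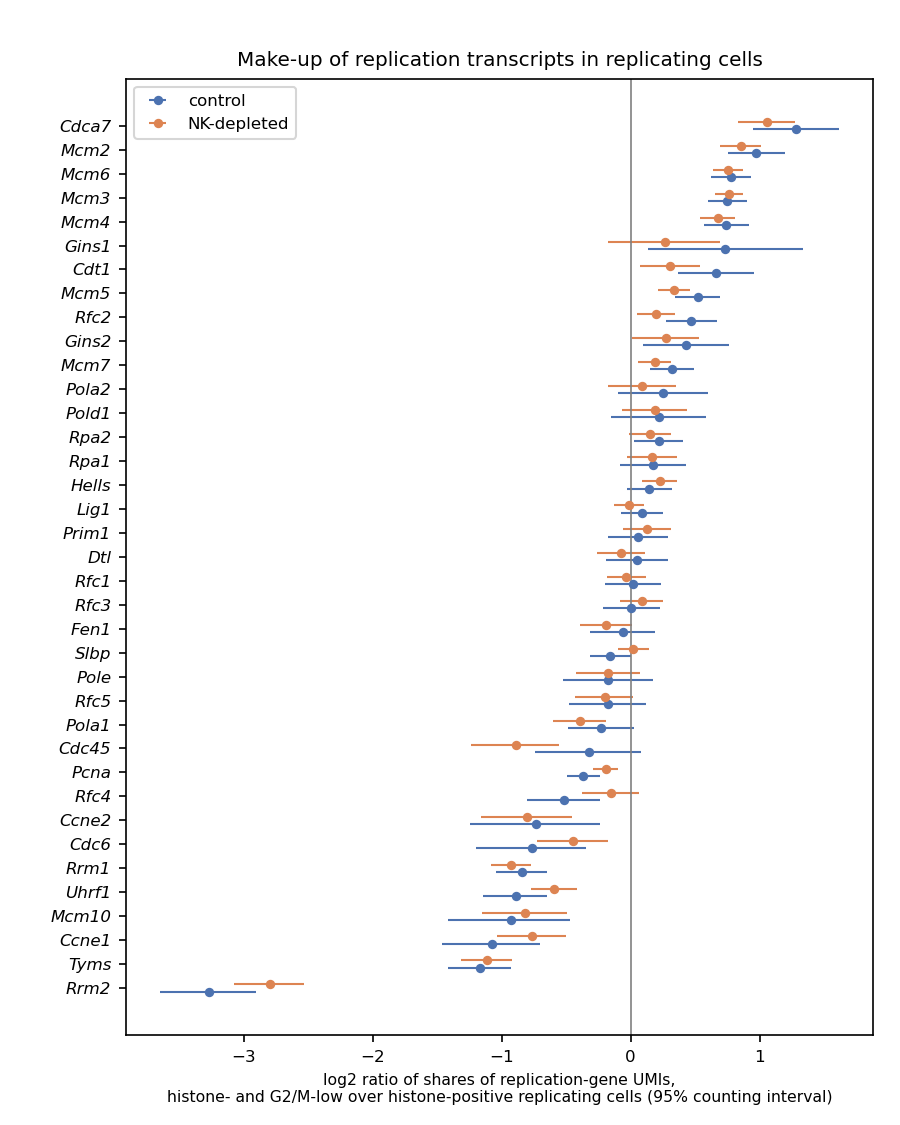
log2 ratio of each gene's share of all replication-gene UMIs in replicating cells positive for neither list over that in histone-positive replicating cells, with 95% counting intervals, for both libraries (genes ordered by the control value). Cdca7 and Mcm2 are at the top, and Rrm2 lies far to the left in both libraries.

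Genes outside the set that went most with it were found by the Pearson correlation of their log counts with the number of the 37 genes detected per thinned cell, within each library. The value is a description over cells of 1 library that share their depth, and 7212 genes were ranked by the mean of the 2 libraries. Highest was Pclaf, which encodes a Pcna-binding factor, with r of 0.67 in the control and 0.66 in the NK-depleted library. The next were Stmn1 (0.64 and 0.59), the fork checkpoint mediator Clspn (0.59 and 0.60), Ptma (0.57 and 0.60), the topoisomerase Top2a (0.57 and 0.59), the histones Hist1h1b and Hist1h2ap, the tubulin Tuba1b, the condensin subunit Smc2 and the dUTPase Dut (0.55 and 0.53). Clspn and Dut are on the lists of other replication genes. Lowest were Rps27 (−0.36 and −0.43), Rps14, Fau and Rpl37a, which encode ribosomal proteins, and Btg1 (−0.27 and −0.35), which encodes an antiproliferative factor.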

How the data were processed

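The authors deposited raw UMI counts of each gene in each barcode. The file headers name Cell Ranger 6.1.2 as the counting software. Listed in the submitters' processing notes are the build mm10 and Seurat 4.0.6, with no role given. The 37 genes and all lists were chosen with earlier results of these data known. CPM are a gene's summed counts over all counts of the CD8 T cells of a library, with exact conditional binomial 95% intervals for ratios and Clopper-Pearson 95% intervals for shares. Shares, status and classes used cells thinned without replacement to 5500 UMIs (seed 7). With 1 library per group no model was fitted. edgeR 4.0.16 gave only the TMM factors of an alternative scaling. The scripts (Python 3.11.15, numpy 2.4.6, scipy 1.17.1, pandas 2.3.3) were tested on simulated data. Doublets were not removed. All 37 genes are accounted for. Named in full are Mcm2 to Mcm7, the highest and lowest ratio of each other role, the 3 highest and 3 lowest other replication genes, and the 10 highest and 5 lowest correlated genes. Other examples were chosen after their values were seen. Gene positions are from GENCODE on GRCm38, the assembly of mm10.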

Additional observations from a re-analysis of the deposited data

Results flagged for a closer look

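For 3 replication genes the libraries went in opposite directions with counting intervals that left out 1, and none of these differences was tested. Cdt1 was lower in Gzmc-positive than in Gzmc-negative control cells (log2 ratio −0.38) and higher in NK-depleted cells (0.17). Pola2 was lower in Havcr2-positive control cells (−0.33) and higher in Havcr2-positive NK-depleted cells (0.29). Mcm4 was lower in control cells positive for G2 and M phase genes alone than in cells positive for neither list (−0.48) and higher in the same comparison of NK-depleted cells (0.38). Its control interval came near 1 (ratio 0.719, 0.509 to 0.987).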

How the results depend on the processing

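No paired analysis was possible because each group had 1 library with no replicate number. Differences of replicating shares are in percentage points, positive minus negative for a status gene. The median log2 ratio of the replication genes was 0.45 with TMM factors, 0.47 with median-of-ratios factors and 0.49 without the 8% of cells with the most UMIs. A minimum of 50 CPM left 12 replication genes and 7 other replication genes higher, since fewer were measured (19 and 27). The difference in replicating share between libraries was 10.1 points with 1000 genes and a mitochondrial share under 5%, 9.40 with at least 12 genes, 6.69 with at least 15, 9.15 not thinned and 6.02 thinned to 3000 UMIs.

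Leaving out cells with 2 or more markers of macrophages, dendritic cells or B cells removed 4524 control and 5699 NK-depleted cells, since T cells carry some of these markers. It gave 13 replication genes higher, a median of 0.22 and a share difference of 4.82, with Tcf7 at −9.30 in the control and −11.2 in the NK-depleted library, Pdcd1 at 2.28 and 6.26, Havcr2 at 7.34 in the control, Gzmc at 3.53 and 9.40, and Ifit3 at −2.00 and −7.79. It turned 6 genes slightly below 0 on the log2 scale: Mcm6 (−0.082), Dtl (−0.031), Pola2 (−0.052), Fen1 (−0.057), Rpa1 (−0.044) and Slbp (−0.024). A version chosen after seeing the data, without cells with any of 12 markers that T cells lack, left out 557 and 553 cells and gave 20 genes, a median of 0.38 and 11.9 points. The other 31 replication genes kept their direction in all 8 settings run on them.

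Without thinning, the status differences were as follows: Tcf7 −2.37 in the control and −10.5 in the NK-depleted library, Pdcd1 29.8 and 31.7, Havcr2 34.4 and 32.7, Gzmc 34.5 and 33.1, and Ifit3 turned to 1.31 and 0.0328. Thinned to 3000 UMIs they were −7.77 and −11.2 (Tcf7), 1.14 and 3.69 (Pdcd1), 4.19 and 6.32 (Havcr2), 11.8 and 12.4 (Gzmc), and −6.90 and −11.1 (Ifit3). Thinned to 8000 UMIs, Tcf7 was −18.5 and Pdcd1 10.3 in the control, and Havcr2 14.3 in the NK-depleted library. With at least 8 genes, Tcf7 was −16.7 and −22.7. With at least 15 genes, Tcf7 was −7.01 and −13.3, Pdcd1 2.37 and 6.39, Havcr2 5.32 and 7.02, Gzmc 10.1 and 10.7, and Ifit3 −11.5 in the NK-depleted library. With status from 2 UMIs, Tcf7 was −15.6 and −26.0, Gzmc 26.7 and 25.8, and Ifit3 −11.9 and −20.9. Without the 8% of cells with the most UMIs, Havcr2 was 7.41, Gzmc 11.9 and Ifit3 −6.44 in the control, and Gzmc 15.004 in the NK-depleted library. With 1000 genes and a mitochondrial share under 5%, Tcf7 was −17.5 in the NK-depleted library. The median of histone-positive over other cells was 1.46 and 1.39 with 3 genes for a class, 2.0045 in the control thinned to 3000 UMIs and 1.56 in the NK-depleted library thinned to 8000. Causes were not tested.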
